A study of Mus musculus with 18 samples.

Results

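The miR-10, miR-99 and miR-100 family was described here in BV-2 cells, an immortalised mouse microglial line, across 6 treatments. Its members were every deposited feature, hairpin (written mir) or mature arm (written miR), named mir-10a, mir-10b, mir-99a, mir-99b or mir-100, which gave 15 of the 2134 features. The small RNA of 18 samples was sequenced, with 3 samples per group. The groups were untreated control cells (Ctrl), cells given 100 ng/ml LPS (lipopolysaccharide, a bacterial cell wall component that activates microglia) for 4 h, cells given 10 μM CBD (cannabidiol) or THC (tetrahydrocannabinol) for 6 h, and cells given either cannabinoid 2 h before LPS (CBD+LPS and THC+LPS). CBD and THC are plant cannabinoids of the same atomic composition, and THC has an additional closed ring that CBD lacks. The cannabinoids were dissolved in ethanol, and whether the control cells received ethanol is not stated in the sources used here. All samples came from 1 cell line, and nothing says that the 3 samples of a group came from separate cultures, so that the p-values measure the spread between these samples only.

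A microRNA is cut from a hairpin precursor, which yields a 5p and a 3p arm, and the loaded arm guides Argonaute proteins to messenger RNAs that pair with its seed, bases 2 to 8. The miR-10/100 family is among the oldest microRNA families in animals. Its miR-10 genes lie inside the Hox clusters, next to the transcription factor genes that pattern the body axis, whereas mir-99a, mir-99b and mir-100 each lie in a cluster with a let-7 and a mir-125 gene. The mir-99b, let-7e and mir-125a cluster has been studied in the inflammatory response of monocytes and macrophages.

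The 5p arms are shown because the seed splits the family into 2 groups and because single bases separate members that were counted as features of their own. The sequences are those of RefSeq (GRCm38.p6), in which all 10 mature arms and 4 of the 5 hairpins were found, and the capitals mark the seed.
mmu-miR-10a-5p: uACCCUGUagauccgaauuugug
mmu-miR-10b-5p: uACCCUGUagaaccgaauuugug
mmu-miR-99a-5p: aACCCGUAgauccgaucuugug
mmu-miR-99b-5p: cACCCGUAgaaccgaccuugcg
mmu-miR-100-5p: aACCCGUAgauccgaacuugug

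Of the 1679 mature mouse names in the table, 2 had the seed of miR-10a-5p and 3 had the seed of miR-99a-5p, all of them family members. With positions counted from 1 at the 5′ end, miR-10b-5p differed from miR-10a-5p by U12A, and miR-99a-5p differed from miR-100-5p by A16U. In contrast, miR-99b-5p differed from miR-99a-5p by A1C, U11A, U16C and U21C. When base 6 of miR-10a-5p, a U, was left out, 20 of the remaining 22 bases were identical to miR-100-5p. Reads were aligned with BWA with at most 10 mappings per read, and how a read that fitted several features was counted is not stated in the sources used here. The split of reads between miR-10a-5p and miR-10b-5p, and between miR-99a-5p and miR-100-5p, is therefore uncertain.

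The 3p arms are shown to set beside the 5p arms of the same hairpins.
mmu-miR-10a-3p: cAAAUUCGuaucuaggggaaua
mmu-miR-10b-3p: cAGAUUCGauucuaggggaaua
mmu-miR-99a-3p: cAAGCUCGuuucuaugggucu
mmu-miR-99b-3p: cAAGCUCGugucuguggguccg
mmu-miR-100-3p: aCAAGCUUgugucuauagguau

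None of the 5 was within 1 mismatch of another mature name of the same length, compared without gaps. miR-10b-3p differed from miR-10a-3p by A3G, U9A and A10U. miR-99a-3p and miR-99b-3p had the same seed and differed by U10G, A14G and U21C. The hairpins of the miR-10 pair are given with both arms in capitals, since only the letters outside and between the arms could tell a hairpin read from an arm read.
mmu-mir-10a: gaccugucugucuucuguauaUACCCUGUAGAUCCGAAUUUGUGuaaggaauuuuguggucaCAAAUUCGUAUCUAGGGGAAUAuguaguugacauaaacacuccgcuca
mmu-mir-10b: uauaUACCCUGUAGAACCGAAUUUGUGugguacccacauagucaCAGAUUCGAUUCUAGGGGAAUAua

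In GENCODE M21 (GRCm38), Mir10a lies at chr11:96317165-96317274 on the plus strand, where it overlaps no other annotated gene and ends 992 bases before Hoxb4. Mir10b lies at chr2:74726070-74726137 on the plus strand, in introns of Hoxd3 and Hoxd4. Mir99a lies at chr16:77598936-77599000 on the plus strand, in an intron of the noncoding gene Mir99ahg and of Gm11146 on the opposite strand, 656 bases from Mirlet7c-1. Mir99b lies at chr17:17830188-17830257 on the plus strand, in an intron of Spaca6, with 94 bases between it and Mirlet7e. Mir100 lies at chr9:41531425-41531504 on the plus strand, in introns of 3110039I08Rik and Gm49317 and in an exon of Gm48742 on the opposite strand, 5211 bases from Mirlet7a-2. The 5 genes thus lie on 5 chromosomes.

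The deposited values were CPM (read counts scaled to a common library size), and the reads behind each value could be recovered as whole numbers. Samples held between 442718 and 1057147 reads, and 3 reads, taken as the smallest readable level for counting error alone, corresponded to 2.98 to 6.38 CPM. The labels number the samples 22 to 39, and samples 22 to 27 hold 1 sample of each group. The hairpins mir-6243, mir-6236 and mir-6240 took 0.151 to 0.361% of the reads in control 22, CBD 30, CBD 36 and THC+LPS 27, against 1.20 to 4.55% in the other 14 samples, and this percentage is called the composition share here. The 6 myeloid microRNAs of a marker list, among them miR-223-3p and both arms of miR-142, had reads and summed to between 33160 and 75370 CPM, of which miR-21a-5p, found in many cell types, made up 30190 CPM on average and miR-223-3p 121 CPM. Of the neuronal list (420 to 666 CPM), nearly all was miR-128-3p, while miR-124-3p had 4 reads and miR-137-3p 6 reads in all samples together. The erythroid list summed to 6.75 to 36.2 CPM, the mesenchymal and endothelial list to 257 to 376 CPM, the liver list to at most 1.88 CPM and the muscle list to at most 4.74 CPM. The labels of the LPS samples were checked with miR-155-3p, which rises in activated macrophages, and its log2 fold change with LPS was 4.87 (limma, adjusted p = 1.66e-08).

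The family was uneven in level, and nearly all of its reads came from a single arm. Mature arms of 21 to 23 bases are compared here as CPM, without a correction for length. Whether different sequences were captured equally was not tested, so ranks and arm shares describe reads only. mmu-miR-99a-5p had 24581 reads and a mean of 1781 CPM over the 18 samples, rank 74 of the 2134 features. It made up 93.3 to 96.9% of the family's 5p reads in every sample. Next came mmu-miR-100-5p with 972 reads (mean 70.1 CPM), mmu-miR-99a-3p with 831 reads (60.3 CPM), mmu-miR-10a-3p with 311 reads (23.4 CPM), mmu-miR-10a-5p with 188 reads (14.7 CPM) and mmu-miR-10b-5p with 110 reads (7.76 CPM). The hairpins mir-99a, mir-99b and mir-10a had 307, 135 and 19 reads. These 9 features had at least 10 reads over all samples and were tested, as part of 1363 features in all.

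The other 6 members were below 10 reads and were not tested. mmu-miR-99b-5p, the arm named for the mir-99b hairpin, had 8 reads, 1 each in control 28, control 34, THC 31 and CBD+LPS 38 and 2 each in LPS 35 and CBD+LPS 26. Its 3p arm, mmu-miR-99b-3p, had 4 reads, although the hairpin mir-99b was listed with 135. By contrast, the hairpin mir-99a had 307 reads against 24581 on its 5p arm. mir-100 had 8 reads, mmu-miR-100-3p 7, mir-10b 6 and mmu-miR-10b-3p 1. None of the 6 exceeded 2 reads in any sample, so that differences between treatments were not detectable at this depth.

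**Figure D1:**
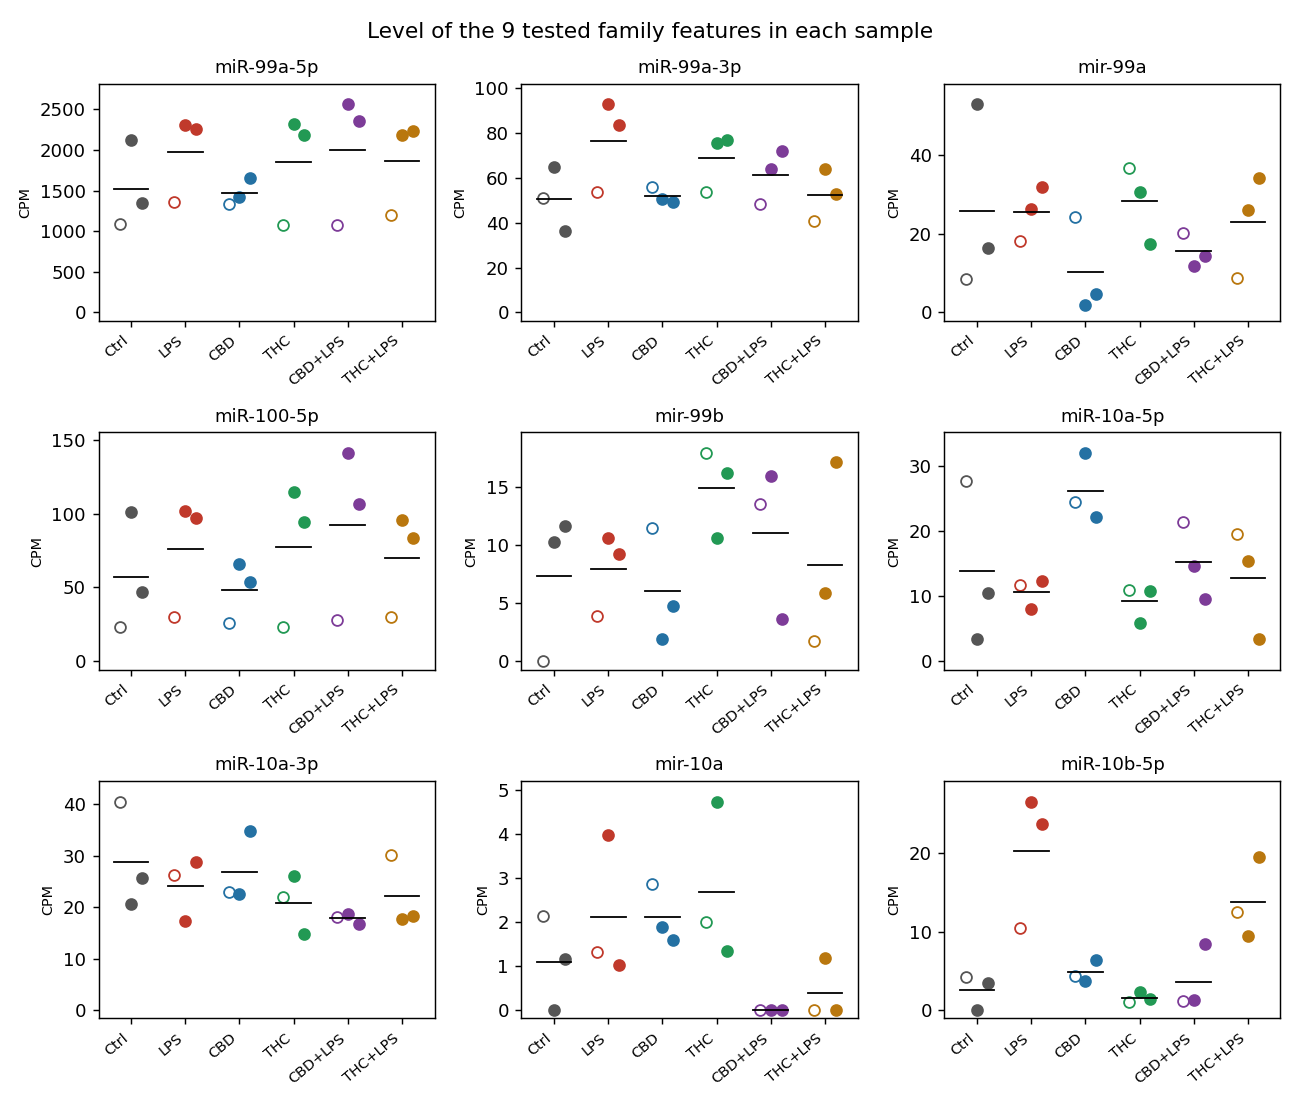
Level (CPM) of the 9 tested family features in each of the 18 samples, by treatment, on linear axes that differ between panels. Open points are samples 22 to 27, filled points are samples 28 to 39, and lines are means of 3 samples. miR-10b-5p was highest in LPS and THC+LPS, and in each treatment miR-99a-5p and miR-100-5p were lowest in the sample numbered 22 to 27.

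mmu-miR-10b-5p, the miR-10 arm from the Hoxd cluster, was the only tested family member called in the comparisons of all 18 samples. Its calls depended on single samples. It was higher after LPS and after THC+LPS than in control cells, and in cells given CBD before LPS it was lower than with LPS alone. In whole reads, the control samples 22, 28 and 34 had 2, 0 and 3, and the LPS samples 23, 29 and 35 had 8, 20 and 23. The CBD samples 24, 30 and 36 had 3, 2 and 4 reads, and the THC samples 25, 31 and 37 had 1, 2 and 1. The CBD+LPS samples 26, 32 and 38 had 1, 1 and 7 reads, and the THC+LPS samples 27, 33 and 39 had 7, 8 and 17. All LPS and THC+LPS samples lay above all control, CBD and THC samples, and among the CBD+LPS samples only number 38 came close to them.

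As levels, these reads were 2.58 ± 2.27 CPM in control cells, 20.2 ± 8.56 with LPS, 4.79 ± 1.35 with CBD, 1.57 ± 0.709 with THC, 3.62 ± 4.14 with CBD+LPS and 13.8 ± 5.15 with THC+LPS (SD, n = 3). Summed over a group, there were 5 reads in control cells (95% Poisson interval 1.62 to 11.7), 51 with LPS (37.97 to 67.1), 9 with CBD+LPS (4.12 to 17.1) and 32 with THC+LPS (21.9 to 45.2). These intervals cover counting error only. Outside the LPS and THC+LPS groups, most samples were at or below 3 reads. In order of level, LPS and THC+LPS were neighbours that did not differ beyond their spread (log2 fold change of THC+LPS against LPS -0.48, 95% interval -1.89 to 0.94). THC+LPS and CBD, the next neighbours, did not overlap. The CBD+LPS, control and THC groups followed, and from CBD down only CBD against THC did not overlap. Whether a change reflects fewer cells with the microRNA or less of it per cell cannot be told apart in bulk samples.

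**Figure D2:**
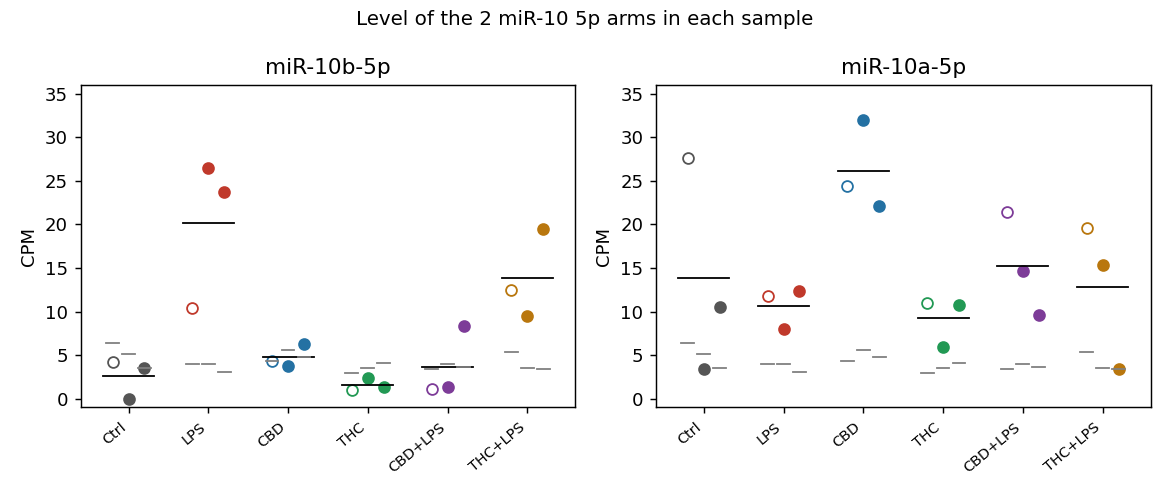
Level (CPM, linear axis) of miR-10b-5p (left) and miR-10a-5p (right) in each sample by treatment, with open points for samples 22 to 27, filled points for samples 28 to 39, black lines for means of 3 samples and grey ticks for 3 reads in that sample. miR-10b-5p was above 3 reads in all LPS and THC+LPS samples, with 7 to 23 reads, and miR-10a-5p had its highest mean with CBD.

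The F test across the 5 treatments asked which features differed at all. It called 1 of the 9 tested members, miR-10b-5p (limma on log2(CPM + 1), adjusted p = 0.0651 by the Benjamini-Hochberg method), where 1.76% of all tested features were called at an adjusted p of at most 0.1. This call was lost with a pseudocount of 0.5, with scaling to miR-191-5p and miR-103-3p, the study's reference miRNAs, and without any single one of 10 samples (LPS 29 or 35, CBD 30 or 36, THC 25, 31 or 37, and THC+LPS 27, 33 or 39).

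LPS was compared with control cells to find its effect in otherwise untreated cells. miR-10b-5p rose 6.91-fold (95% interval 2.59 to 18.4), a log2 fold change of 2.79 (SE 0.67, limma, adjusted p = 0.0681). It was the 1 member of 9 called at the criterion of an unadjusted p up to 0.005 and a change of 1.5-fold or more, which 1.54% of all tested features met. The median log2 fold change was 0.47 over the 9 members tested and 0.11 over all tested features. Without control 28, the sample with 0 reads, the log2 fold change was 2.03 (adjusted p = 0.333) and the call was lost. In samples 28 to 39 alone it was 3.62 (adjusted p = 0.0202).

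THC+LPS and CBD+LPS were set against the same control samples as LPS. For miR-10b-5p the log2 fold change with THC+LPS was 2.31 (SE 0.67, 4.96-fold, 95% interval 1.86 to 13.2, limma, adjusted p = 0.204), and the groups did not overlap. It was the 1 member called, against a background of 1.83%. The call was lost without control 28 (1.55, limma, adjusted p = 0.691) and without THC+LPS 39 (2.05, adjusted p = 0.501). It was also lost without THC+LPS 27, where the value was not smaller (2.35, limma, adjusted p = 0.487). In that fit the SE was 0.77 in place of 0.67. With CBD+LPS the log2 fold change was 0.33 (95% interval -1.09 to 1.74), and 0 of the 9 members were called, against a background of 1.39%. Without a covariate, limma gave 0 members with CBD+LPS at an unadjusted p up to 0.05, which 86 of the 1363 tested features reached. With a covariate for samples 22 to 27, miR-100-5p reached it (0.64, SE 0.28, limma, unadjusted p = 0.0354, adjusted p = 0.534). In samples 28 to 39 alone miR-99a-5p (0.54), miR-100-5p (0.83) and mir-99a (-1.12) reached it, with limma adjusted p of 0.105, 0.152 and 0.274. No member was called in these fits, and their background at that level is not given here.

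Pretreatment with CBD was compared with LPS alone. miR-10b-5p was lower in CBD+LPS, at 0.182 of the LPS level (95% interval 0.0682 to 0.484), a log2 fold change of -2.46 (SE 0.67). The groups did not overlap, but the limma adjusted p over all features was 0.849. It was the 1 member called at the criterion, against a background of 0.22%, and 3 features in all were called. The call was lost without LPS 29 (log2 fold change -2.23), LPS 35 (-2.30), CBD+LPS 26 (-2.08) or CBD+LPS 32 (-2.15). Without CBD+LPS 38, which held 7 of the 9 reads of its group, the value was -3.15. With THC pretreatment 0 members were called against LPS alone (background 0.22%). Without a covariate, limma gave 0 members and 32 of the 1363 tested features at an unadjusted p up to 0.05. With a covariate for samples 22 to 27, miR-99a-3p reached that level (-0.52, limma, adjusted p = 0.996). The median log2 fold change over the 9 members was -0.25, against -0.04 over all tested features.

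Whether CBD acted differently on miR-10b-5p in resting and LPS-activated cells was tested with the interaction term. It was -3.45 on the log2 scale (SE 0.95, 95% interval -5.45 to -1.45, limma, adjusted p = 0.524) and did not pass the adjusted threshold. It was -2.69 without control 28 and -4.14 without CBD+LPS 38. The background was 0%, with 0 features called and 65 with an unadjusted p up to 0.05, 2 of them members (miR-10b-5p and mir-10a). In samples 28 to 39 alone the interaction was -3.95 (adjusted p = 0.0414), in a subset in which 9.83% of all features passed. The THC interaction of miR-10b-5p was -0.28 (95% interval -2.28 to 1.72, limma, adjusted p = 0.99). For THC the background was also 0%, and 51 features had an unadjusted p up to 0.05, among them the members mir-10a and miR-99a-3p.

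Pooled over the 3 pretreatments, LPS gave miR-10b-5p a log2 fold change of 1.54 (SE 0.51, limma, adjusted p = 0.267). Here 0 members passed an adjusted p of 0.1, against a background of 1.54%. An unadjusted p up to 0.05 was reached by 2 members and by 95 of the 1363 tested features. miR-10b-5p passed with edgeR on the reads (1.95, adjusted p = 0.0659) and with DESeq2 (1.94, adjusted p = 0.0252).

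In resting cells no tested member met the criterion with either cannabinoid. With CBD the log2 fold change of miR-10b-5p was 0.99 (95% interval -0.42 to 2.40), and with THC it was -0.19 (-1.61 to 1.22). Without control 28 these values were 0.23 and -0.95. Of the 9 members 0 were called with CBD (background 1.61%) and 0 with THC (background 0.44%). Without a covariate, limma gave 0 members in both at an unadjusted p up to 0.05. That level was reached by 125 of the 1363 tested features with CBD and by 46 with THC. With a covariate for samples 22 to 27, miR-10a-5p reached it with CBD (limma, adjusted p = 0.407). In samples 28 to 39 alone miR-10a-5p, mir-99a and mir-99b reached it with CBD, and miR-99a-3p and miR-99a-5p with THC. Both comparisons used the same control samples. The sign for THC is not stable, since it turned to 0.41 in samples 28 to 39 alone.

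The cannabinoids were also compared with each other at the same dose and time. In resting cells 0 members were called, against a background of 3.3%. An unadjusted p up to 0.05 was reached by 2 members (mir-99a and miR-10a-5p) and by 221 of the 1363 tested features. For miR-10b-5p, CBD against THC gave 1.18 (95% interval -0.23 to 2.60, limma, adjusted p = 0.411), with 3.76 to 6.32 CPM in CBD and 0.994 to 2.36 CPM in THC. These samples held 1 to 4 reads each. In LPS-activated cells 0 members were called, against a background of 0.147%. There miR-10b-5p was lower with CBD than with THC by a log2 difference of -1.98 (95% interval -3.40 to -0.57, limma, adjusted p = 1), and the groups did not overlap. This value met the criterion without control 28 (-1.98) or without CBD+LPS 38 (-2.68), with adjusted p of 1 and 0.725.

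**Figure D3:**
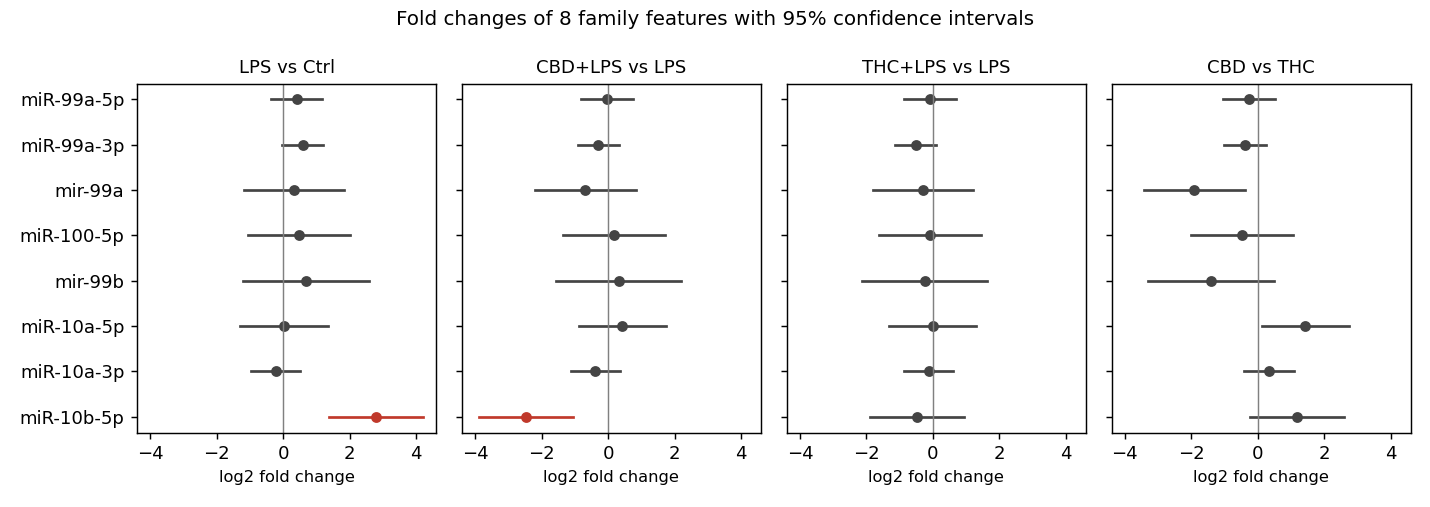
Log2 fold changes (log2(CPM + 1) scale) of 8 tested family features in 4 comparisons, with 95% confidence intervals from limma and red for features called at the criterion. miR-10b-5p was called in LPS against control (2.79) and CBD+LPS against LPS (-2.46), and mir-10a is left out because its groups were at or near 0 reads.

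mmu-miR-10a-5p, the close relative of miR-10b-5p from the Hoxb cluster, did not follow it. In CPM, the control samples 22, 28 and 34 had 27.6, 3.42 and 10.5, and the LPS samples 11.8, 7.94 and 12.4. The CBD samples had 24.4, 31.9 and 22.1 CPM, and the THC samples 10.9, 5.90 and 10.8. The CBD+LPS samples had 21.4, 14.6 and 9.60 CPM, and the THC+LPS samples 19.5, 15.4 and 3.44. Control samples spanned nearly the whole range, and only CBD and THC did not overlap among the comparisons of the cannabinoids with control or with each other. Its summed reads were 24 in control and 27 in LPS, while those of miR-10b-5p were 5 and 51. miR-10b-5p thus made up 0 to 25% of the reads of the pair in control samples, 47.1 to 76.9% with LPS, 5 to 46.7% with CBD+LPS and 38.1 to 85% with THC+LPS.

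For miR-10a-5p, CBD against THC gave a log2 difference of 1.44 (SE 0.62, limma, adjusted p = 0.257), with 26.1 ± 5.13 CPM in CBD and 9.22 ± 2.87 CPM in THC (SD, n = 3). With the composition share as a covariate this difference was 0.39 (limma, adjusted p = 0.931). That share was 0.151 to 1.67% in the CBD samples and 1.80 to 4.55% in the THC samples, without overlap. The share and the cannabinoid therefore cannot be told apart in this comparison. Across the 18 samples Pearson's r of miR-10a-5p with that share was -0.70, as a description over samples that share the treatments and the scaling. For miR-10b-5p the same r was -0.19, and its log2 fold change with LPS was 2.95 with the covariate (limma, adjusted p = 0.0194).

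The other arm, mmu-miR-10a-3p, was read more often than the 5p arm over the 18 samples together (311 against 188 reads). In CBD 24, CBD 30 and CBD+LPS 26 the 5p arm had more reads. The split of 5p reads with miR-10b-5p is uncertain, which limits this balance. miR-10a-3p made up 41.4 to 85.7% of the reads of both arms (median 62.4%). Its group means lay between 17.8 CPM with CBD+LPS and 28.9 CPM in control cells. In the mir-99a hairpin the balance was the reverse, with 2.31 to 4.75% of the reads of both arms on the 3p arm. The hairpin feature mir-10a had 0 reads in all 3 CBD+LPS samples, 1, 3 and 1 in the LPS samples and at most 4 in any sample. All its groups were thus near the smallest readable level, and no fold change is given.

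mmu-miR-99a-5p, the dominant arm, met the criterion in none of the comparisons of all 18 samples. The control samples had 1082, 2127 and 1342 CPM, and the LPS samples 1361, 2302 and 2262. The CBD samples had 1335, 1418 and 1652 CPM, and the THC samples 1076, 2314 and 2180. The CBD+LPS samples had 1080, 2561 and 2354 CPM, and the THC+LPS samples 1196, 2182 and 2229. In every group the sample numbered 22 to 27 was the lowest of the 3, and all groups overlapped. The group means ran from 1468 ± 164 CPM with CBD to 1998 ± 802 with CBD+LPS (SD, n = 3), and no neighbours in that order differed beyond their spread. For LPS against control the log2 fold change was 0.40 (95% interval -0.38 to 1.18). In samples 28 to 39 alone CBD against THC gave -0.55 (limma, adjusted p = 0.0316), which is under the 1.5-fold criterion.

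mmu-miR-100-5p, from the cluster on chromosome 9, split by sample number in the same way. In CPM, the control samples had 23.4, 101 and 46.6, and the LPS samples 30.1, 102 and 96.8. The CBD samples had 25.8, 65.7 and 53.7 CPM, and the THC samples 22.9, 114 and 94.6. The CBD+LPS samples had 28.2, 141 and 107 CPM, and the THC+LPS samples 30.2, 95.7 and 83.7. Samples 22 to 27 lay at 22.9 to 30.2 CPM and samples 28 to 39 at 46.6 to 141 CPM, with no overlap. Relative to miR-99a-5p, from which it differs by a single base, miR-100-5p had 1.93 to 2.61 reads per 100 in samples 22 to 27 and 3.25 to 5.50 in samples 28 to 39. Because each treatment had 1 sample in the first set, the split adds to the spread within every group. What sets these samples apart is not given in the labels, and its part in the results was not tested beyond the fits with and without them. With a covariate for samples 22 to 27, the log2 fold change of miR-100-5p with LPS stayed at 0.47 and its SE was 0.28 in place of 0.73 (limma, adjusted p = 0.672). Over the 18 samples r between miR-100-5p and miR-99a-5p was 0.96, a description over points that share this split and possibly reads.

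**Figure D4:**
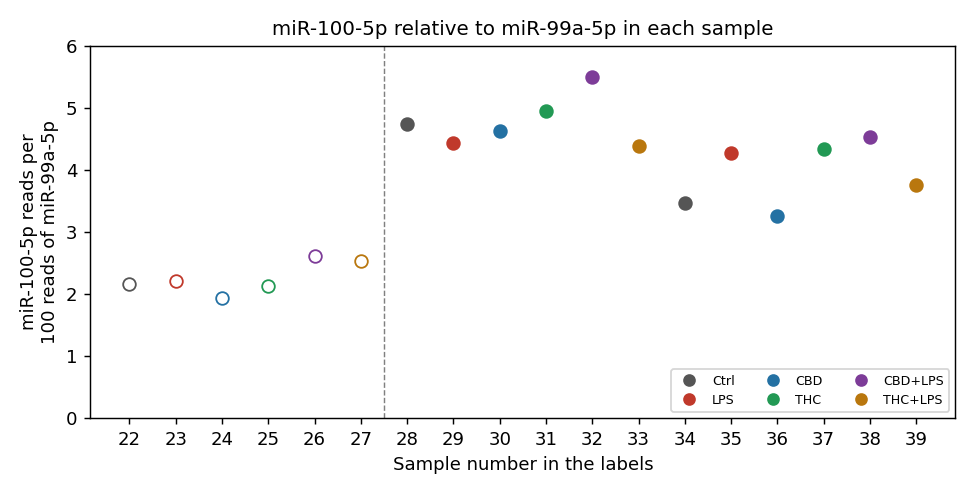
Reads of miR-100-5p per 100 reads of miR-99a-5p in each sample (vertical axis) by the sample number in the labels (horizontal axis), with colours for the 6 treatments. All 6 samples to the left of the dashed line lie between 1.93 and 2.61, and the 12 to the right lie between 3.25 and 5.50.

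The hairpin feature mir-99a gave a different picture from its arms. Its reads in the control samples were 4, 31 and 14, and in the LPS samples 14, 20 and 31. The CBD samples had 17, 1 and 3 reads, and the THC samples 37, 26 and 13. The CBD+LPS samples had 18, 9 and 12 reads, and the THC+LPS samples 5, 22 and 30. The 4 lowest levels (1.88 to 8.88 CPM) were those of control 22, CBD 30, CBD 36 and THC+LPS 27, the samples with the lowest composition share. Over the 18 samples r between mir-99a and that share was 0.90, and it was 0.80 for mir-99b, 0.37 for miR-99a-5p and 0.37 for miR-99a-3p, against a median of 0.06 over all tested features. The CBD and THC samples did not overlap in that share, so it cannot be told apart from the cannabinoid in their comparison. CBD against THC gave mir-99a a log2 difference of -1.91 (limma, adjusted p = 0.18), and with the share as a covariate it was -0.07 (adjusted p = 0.98). Without CBD 24 it was -2.79 (adjusted p = 0.0315), and in samples 28 to 39 alone -2.58 (adjusted p = 0.00223), both past the criterion, which 6.46% and 11.6% of all features met in these fits. The 3p arm of the same hairpin gave -0.38 (95% interval -1.01 to 0.24).

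**Figure D5:**
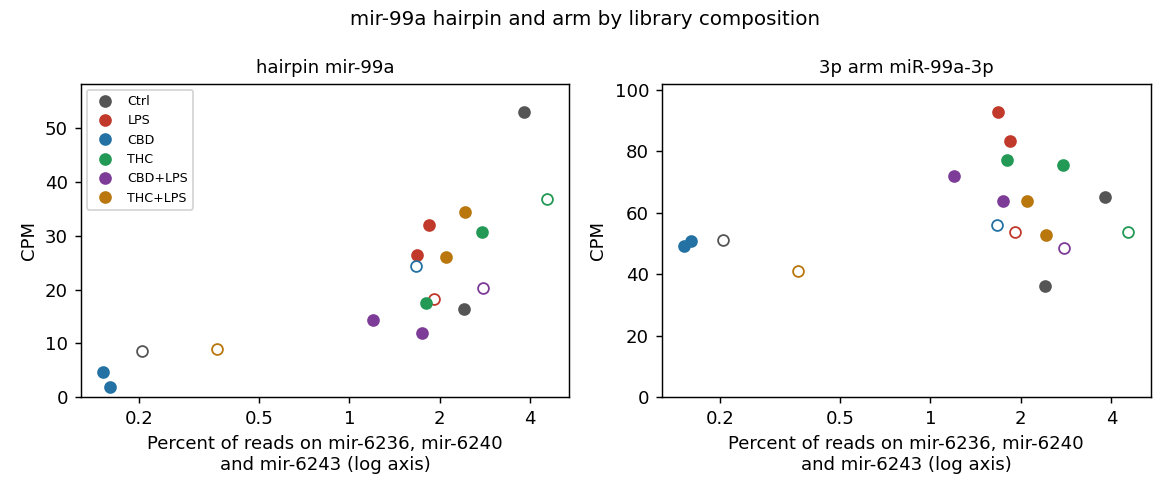
Level (CPM, linear axis) of the hairpin mir-99a (left) and of miR-99a-3p (right) against the composition share, the percent of each sample's reads on 3 other hairpins (log axis), with open points for samples 22 to 27 and colours for treatments. The 4 samples at 0.151 to 0.361% have the lowest mir-99a levels. Their miR-99a-3p levels (40.9 to 51.0 CPM) lie in the lower part of the range over all samples (36.1 to 92.7 CPM), without being the lowest as a set.

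mir-99b, whose arms were nearly unread, had 0 to 18 reads per sample. Its group means ran from 6.03 ± 4.93 CPM with CBD to 14.9 ± 3.81 CPM with THC (SD, n = 3), a log2 difference of -1.40 (95% interval -3.29 to 0.49). mmu-miR-99a-3p had group means between 50.7 ± 14.4 CPM in control and 76.6 ± 20.4 CPM with LPS (SD, n = 3), a log2 fold change of 0.59 (95% interval -0.04 to 1.21).

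The let-7 and mir-125 members of the 3 clusters were counted as a list. Of 17 in the files 16 were tested, and 1 was called in any of the 13 comparisons, the hairpin let-7e in CBD against THC, where 3.3% of all features were called. Its levels were 23.98 ± 4.05 CPM with CBD and 5.91 ± 2.66 CPM with THC (SD, n = 3), a log2 difference of 1.91 (limma, adjusted p = 0.103). The composition share did not overlap between these groups, so it cannot be told apart from the cannabinoid for let-7e either. The most abundant of the list was let-7a-5p at 8898 CPM, an arm that several let-7a hairpins produce. Counted over features named for a single cluster, the mir-99a cluster had a mean of 2635 CPM (1642 to 3586). The mir-100 cluster had 104 CPM (40.8 to 167) and the mir-99b cluster 67.9 CPM (46.1 to 87.1). These sums include miR-99a-5p (1781 CPM) and miR-100-5p (70.1 CPM), between which the split of reads is uncertain. In the mir-99b cluster let-7e-3p led with 37.9 CPM, and in the mir-99a cluster miR-125b-2-3p had 540 CPM.

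The other microRNAs of the Hox clusters, the mir-196 and mir-615 features, were the second list. Of 11 in the files 7 were tested and 0 were called in any comparison, with at most 1 of 7 in a comparison at an unadjusted p up to 0.05 by limma. The most abundant was the hairpin mir-196a-2 at 13.7 CPM, and the arm miR-196a-5p had 3 reads in all samples together.

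By the likeness of their values over the 18 samples, 5 of 653 features with at least 100 reads outside the family came nearest to miR-10b-5p. These were miR-20a-3p (Pearson's r 0.79), miR-101b-5p (0.71), the hairpin mir-155 (0.70), miR-674-5p (0.69) and miR-21a-5p (0.69). For miR-99a-5p they were miR-101a-5p (0.97), miR-29c-5p (0.97), miR-125b-2-3p (0.97), miR-378b (0.97) and miR-27b-3p (0.96). These values describe samples that share treatments, libraries and the sample-number split, and miR-125b-2-3p is the partner of miR-99a-5p in its cluster.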

How the data were processed

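Small RNA libraries of 18 samples of BV-2 cells were multiplexed in a single pool and sequenced on an Illumina HiSeq by the authors, who aligned reads to miRBase mouse sequences with BWA and counted reads per known miRNA. The values the authors deposited are CPM, reads scaled by library size and edgeR's TMM factor, and in samples with a low factor they sum to more than a CPM total, so the deposited unit was recorded as a signal there. Whole read counts were recovered from the deposited values (100% within 0.001 reads), and TMM factors computed from them gave the deposited scale to a relative deviation of 5.42e-09. Pairs of samples within a group varied beyond sampling noise (chi-square per degree of freedom 3.04 to 98.6).

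The 1363 features whose reads summed to 10 or more were tested as log2(CPM + 1) with limma 3.58.1 (mean-variance trend, R 4.3.3) in 1 model of 6 groups, and the pooled LPS effect in an additive model. Tests were 2-sided. Comparisons of 2 groups were called at an unadjusted p of at most 0.005 and 1.5-fold, and the F test, interactions and pooled effect at a Benjamini-Hochberg adjusted p of at most 0.1. The scripts were tested on simulated data. Alternatives were edgeR 4.0.16, DESeq2 1.42.0, other scalings, filters and pseudocounts, covariates or subsets by sample number and library composition, and each sample left out. Named features were all members, the 2 lists' called and most abundant features, and the 5 features most like miR-10b-5p and miR-99a-5p. The members, lists and alternatives were chosen with earlier results of these data known.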

Additional observations from a re-analysis of the deposited data

How the results depend on the processing

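The labels name no pairs, since the groups share no sample number, and the main fit used no pairing. The sets 22 to 27, 28 to 33 and 34 to 39 each hold 1 sample of every group, and a covariate for these sets, chosen after seeing the data, changed no call (miR-10b-5p with LPS 2.79, limma, adjusted p = 0.0464). The number of members called (of 9) was lost or gained as follows. Across the treatments it fell from 1 to 0 with a pseudocount of 0.5 and with reference miRNAs, and rose to 3 in samples 28 to 39 alone (miR-10b-5p, mir-99a and miR-99a-5p, with 18.2% of all features called). For THC+LPS against control it fell to 0 with reference miRNAs and with DESeq2. In samples 28 to 39 alone it was 0 for CBD+LPS against LPS (miR-10b-5p -2.48), and 1 for CBD against control (mir-99a), CBD against THC (mir-99a) and the CBD interaction (miR-10b-5p). For pooled LPS it rose to 1 (miR-10b-5p) with edgeR, DESeq2 and the composition covariate. Leaving out single samples gave 0 to 1 for the treatments together, LPS, CBD, THC+LPS against control, CBD+LPS against LPS, CBD against THC, CBD+LPS against THC+LPS and pooled LPS. The log2 fold change of miR-10b-5p changed sign in the following comparisons. For THC against control it was 0.072 with the composition covariate and 0.41 in samples 28 to 39. It was 0.24 without control 22 and 0.13 without control 34, and ran from -0.95 to 0.24 over the samples left out. For CBD+LPS against control it was -0.43 without control 28 and -0.37 without CBD+LPS 38. It ran up to 0.76 over the samples left out and was 1.14 in samples 28 to 39 alone. For the THC interaction it was 0.15 with edgeR, 0.20 with DESeq2 and 0.48 without control 28. It ran down to -0.72 over the samples left out and was -1.24 in samples 28 to 39 alone. None of these sign changes concerned a called value. Of 429 recomputed counts 394 kept the same number, and of 618 recomputed fold changes 589 kept direction and side of the threshold. Leaving out a sample of another group, or adding a covariate for the sets, leaves the fold change of 2 groups as it was. Many of these values could therefore not change direction, and the totals do not measure stability. Over the 15 settings other than leaving out a sample, the log2 fold change of miR-10b-5p ranged from 2.35 to 3.62 for LPS against control and from -2.69 to -2.13 for CBD+LPS against LPS. Where a call changed, the cause was not tested. miR-10b-5p had 0 to 23 reads per sample, which limits its precision.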
